A study of Mus musculus with 37 samples.

Results

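T cell receptor beta (TRB) rearrangements were compared between 6 lymph node libraries with the treatment label PLX+PTX+aPD-1_R (called R here), from mice given PLX3397, PTX and an antibody against PD-1, and 6 with the label PLX+PTX, from mice given PLX3397 and PTX. All were from female MMTV-PyMT mice at d105, after digestion of the tissue and extraction of genomic DNA. These 12 libraries were chosen by treatment and time labels from 37 in the series, and every clonotype of their tables was used. The transgene expresses the polyoma middle T antigen under the mouse mammary tumor virus promoter, and female carriers develop mammary tumors. PLX3397 (pexidartinib), an inhibitor of the macrophage receptor CSF1R, was mixed into the chow of both groups to give 40 mg/kg each day, starting when the mice were 80 days old. PTX, the chemotherapy of the series title, was injected in both groups at 10 mg/kg every 5 days from 85 days. In the R group, aPD-1 was injected from 87 days, first at 1.0 mg and then at 0.5 mg every 5 days. The protocol also names an isotype control antibody, and the labels do not say whether PLX+PTX mice received it.

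The labels do not spell out the suffix R. It marks part of the mice given all 3 agents at d105, since 4 others carry the suffix NR and are left out, so the R mice are a labelled subset and not a full treatment arm. Each library has its own number in the description label, and no label says that this number is a mouse. Test results therefore measure the spread between libraries. The numbers fall into 2 blocks. The lower block holds 2 R and 4 PLX+PTX libraries, and the higher block holds 4 R and 2 PLX+PTX libraries. The tables hold TRB rearrangements alone, so the lymph node label could not be checked against other markers, and neither CD4 and CD8 T cells nor tumor-reactive T cells can be told apart.

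Each T cell builds its receptor beta chain by joining a variable (TRBV), a diversity (TRBD) and a joining (TRBJ) segment, with bases trimmed and added at the joints. The joint encodes the third complementarity-determining region (CDR3), the loop that touches the peptide, so a CDR3 with its segments serves as a tag for a T cell clone. Receptors that need few added bases arise again and again and are found in many individuals (public clonotypes), whereas most others are found in 1 individual only. PD-1 is an inhibitory receptor on activated T cells, and antibodies that block it can let T cells divide, and dividing clones take a larger share of a repertoire. A share does not tell more cells of one kind from fewer of the others.

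R libraries held 1503902 to 2449606 reads (median 1876225) and 45911 to 87090 clonotypes. PLX+PTX libraries held 1327206 to 2831566 reads (median 1850138) and 51505 to 91867 clonotypes. Every listed CDR3 was productive, and a clonotype had a median of 15 to 29 reads in R libraries and 15 to 30 in PLX+PTX libraries. An entry of the tables is a nucleotide form, that is a V segment, a J segment and a nucleotide CDR3. Clonotype numbers, clonality, richness, the 10 largest, expanded clonotypes and leaders are given over nucleotide forms, unless merged ones are named. For shared and public clonotypes, presence and CPM, forms with the same segments and amino acid CDR3 were merged, which gave 536811 in the 12 libraries, and 449585 of these (83.8%) were found in a single library. All 12 libraries shared 293. Unless reads are named, a value is a share of the authors' normalised clone counts, which multiply the reads of each TRBV and TRBJ pair by a nearly constant factor.

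The clonotypes below are the ones the comparison turns on, each with its most abundant nucleotide form in the 12 libraries or in the library it led. Capitals mark bases that were assigned to neither the V nor the J segment, that is D segment bases and added bases. The first line is the most abundant public clonotype and the second the one whose single nucleotide forms most often reached 0.1% of a library. The third led the reads in 2 R libraries, the fourth led normalised counts in R replicate 1, and the fifth reached the highest normalised share. The remaining lines are clonotypes that some setting called different or that were found in all libraries of 1 group and in none of the other.
TRBV4 TRBJ2-7 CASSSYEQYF: tgtgccagcagctcctatgagcagtacttc
TRBV4 TRBJ2-7 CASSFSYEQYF: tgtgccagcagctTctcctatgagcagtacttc
TRBV13-2 TRBJ2-5 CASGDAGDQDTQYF: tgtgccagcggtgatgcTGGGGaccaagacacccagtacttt
TRBV4 TRBJ2-7 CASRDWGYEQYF: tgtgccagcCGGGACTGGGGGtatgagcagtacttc
TRBV26 TRBJ2-3 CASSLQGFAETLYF: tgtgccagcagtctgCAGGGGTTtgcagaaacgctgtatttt
TRBV3 TRBJ2-5 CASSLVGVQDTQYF: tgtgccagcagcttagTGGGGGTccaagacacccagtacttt
TRBV2 TRBJ2-5 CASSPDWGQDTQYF: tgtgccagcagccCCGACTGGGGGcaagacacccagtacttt
TRBV19 TRBJ2-7 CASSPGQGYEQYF: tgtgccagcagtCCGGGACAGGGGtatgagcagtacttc
TRBV2 TRBJ1-1 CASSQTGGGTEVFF: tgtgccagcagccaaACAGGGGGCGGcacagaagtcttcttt
TRBV2 TRBJ1-1 (45 bases): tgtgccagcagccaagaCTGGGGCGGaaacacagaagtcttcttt
The first holds 0 bases outside the V and J segments, the second holds 1, and the third holds 5. The other lines hold 7 to 12.

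No V or J segment was called higher or lower in R libraries. With limma on log2 of the percent plus 0.01, fitted over all 23 d105 libraries, 0 of 24 segments passed an adjusted p of 0.05 (0% of those tested), 0 had an unadjusted p under 0.05, and the lowest adjusted p was 0.945. The counts from edgeR and DESeq2 on reads were 0 called each, with 1 segment each at an unadjusted p under 0.05. Of the 24 log2 differences, 11 were above 0 and 13 below, with a median of -0.01. For 22 of the 24 the whole 95% interval lay within a fold of 1.5 in either direction. The 95% intervals were wide for TRBV20 and TRBJ1-5, which varied most between libraries.

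By normalised counts, TRBV4 was the most used V segment in these libraries. It held 20.9% ± 0.743 of normalised counts in R libraries and 20.7% ± 1.19 in PLX+PTX libraries (SD, n = 6 each). TRBV5 followed with 16.7% ± 1.05 in R and 16.6% ± 0.786 in PLX+PTX libraries, and TRBV3 with 15.6% ± 1.28 and 15.9% ± 0.503. The ranges of the groups overlapped for each of them. By reads the order differed. TRBV24 held 19.2% of reads in R libraries and 18.5% in PLX+PTX libraries, TRBV4 held 7.78% and 7.77%, and TRBV5 held 6.53% and 6.68%. Among J segments, TRBJ2-7 held 29.0% ± 1.61 in R libraries and 29.2% ± 1.23 in PLX+PTX libraries, and TRBJ2-5 held 20.8% ± 1.10 and 20.2% ± 0.643.

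The 5 segments with the smallest p did not pass either. TRBJ1-1 held 5.07% ± 0.207 in R libraries and 5.29% ± 0.145 in PLX+PTX libraries, with overlapping ranges. Its log2 difference was -0.06 (SE 0.04, 95% interval -0.16 to 0.03), and TRBJ1-4 had the same size, -0.06 (SE 0.05). TRBV23, a segment of low use, differed by 0.09 (SE 0.07) and TRBV24 by 0.07 (SE 0.08). TRBV20 held 1.93%, 1.31%, 0.404%, 2.21%, 2.04% and 1.89% in R replicates 1 to 6, and 0.952%, 1.92%, 2.73%, 1.87%, 1.87% and 2.14% in PLX+PTX replicates 1 to 6. One library in each group was low and the groups overlapped. Its log2 difference of -0.35 (SE 0.31) was 0.016 without R replicate 3, and it was -0.049 within the lower block of numbers and -0.72 within the higher block.

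**Figure D1:**
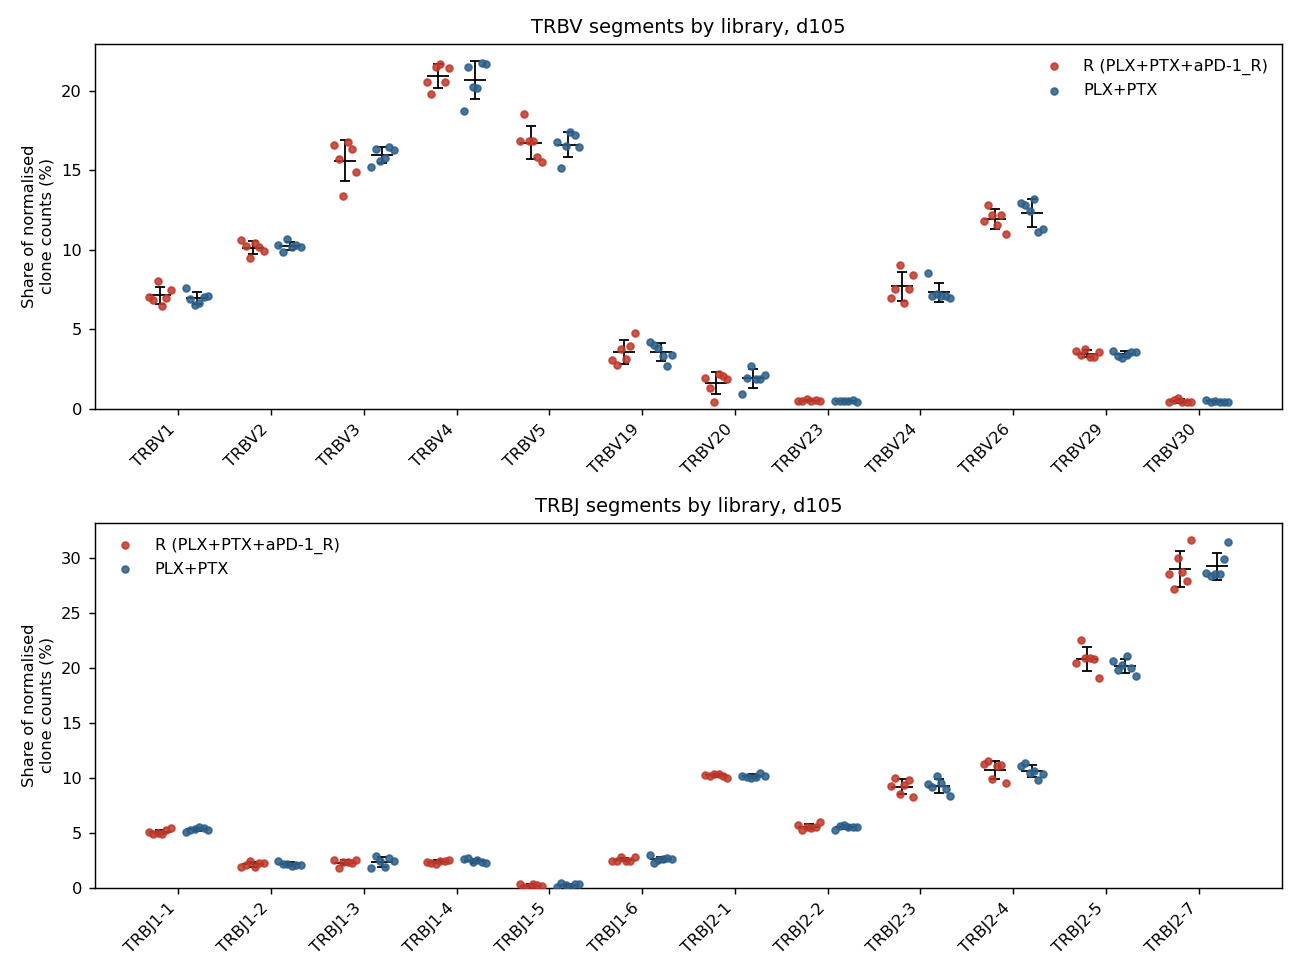
Share of normalised clone counts (%, vertical axis) of each tested TRBV segment (top) and TRBJ segment (bottom) in each library, R in red left of PLX+PTX in blue, with bars for the mean and SD of 6 libraries. The groups overlap for all 24 segments, and TRBV20 is lowest in R replicate 3 at 0.404%.

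The segments were also read by lists, which were chosen with earlier results of these data known. Superantigens of mouse mammary tumor virus drive or delete T cells by their TRBV segment, and the list of such segments held TRBV1, TRBV19, TRBV26 and TRBV29. Of its 4 members, 0 passed, 2 had a log2 difference above 0 and 2 below, and the median was -8.7e-05, beside -0.01 over all 24 segments. Together they held 26.1% ± 1.14 in R libraries and 26.3% ± 1.39 in PLX+PTX libraries. TRBV26 held 11.9% ± 0.613 in R and 12.3% ± 0.873 in PLX+PTX libraries, with a log2 difference of -0.04 (95% interval -0.20 to 0.11). TRBV1 differed by 0.04 (95% interval -0.09 to 0.16), TRBV29 by 0.01 (-0.09 to 0.10) and TRBV19 by -0.01 (-0.27 to 0.25). TRBV19, which mucosal-associated invariant T cells also use, had within-block differences of opposite sign, -0.29 in the lower and 0.12 in the higher block.

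The list of segments used by invariant T cells adds the TRBV13 family of natural killer T cells to TRBV1, TRBV19 and TRBV29. Of its 6 members, 3 were abundant enough to be tested and 0 passed. Their summed share was 14.2% ± 1.32 in R libraries and 14.0% ± 0.817 in PLX+PTX libraries. The TRBJ1 cluster ranged from 13.5% to 15.5% in R libraries and from 14.5% to 15.6% in PLX+PTX libraries. All 6 tested TRBJ1 members had a log2 difference below 0, with a median of -0.05, and 0 of them passed. In the TRBJ2 cluster, which complements it to the whole, 4 of 6 members were above 0 and the median was 0.0079.

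The labels give no strain background. FVB/N mice, a common background of this transgene, lack a stretch of the TRBV locus, and 9 segments of that stretch form the last list. None reached a mean share of 0.1%, so 0 of 9 were tested. In reads, their sum had a lowest, median and highest share of 0.0270%, 0.0356% and 0.647% in R libraries and 0.0171%, 0.0350% and 0.0981% in PLX+PTX libraries. The high value was that of R replicate 3. A single TRBV13-2 clonotype, described below, held 0.499% there. Without it the sum was 0.148% in R replicate 3, above the other R libraries (lowest 0.00952%, median 0.0214% over all 6) and above the PLX+PTX libraries (0.00777%, 0.0205% and 0.0398%).

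**Figure D2:**
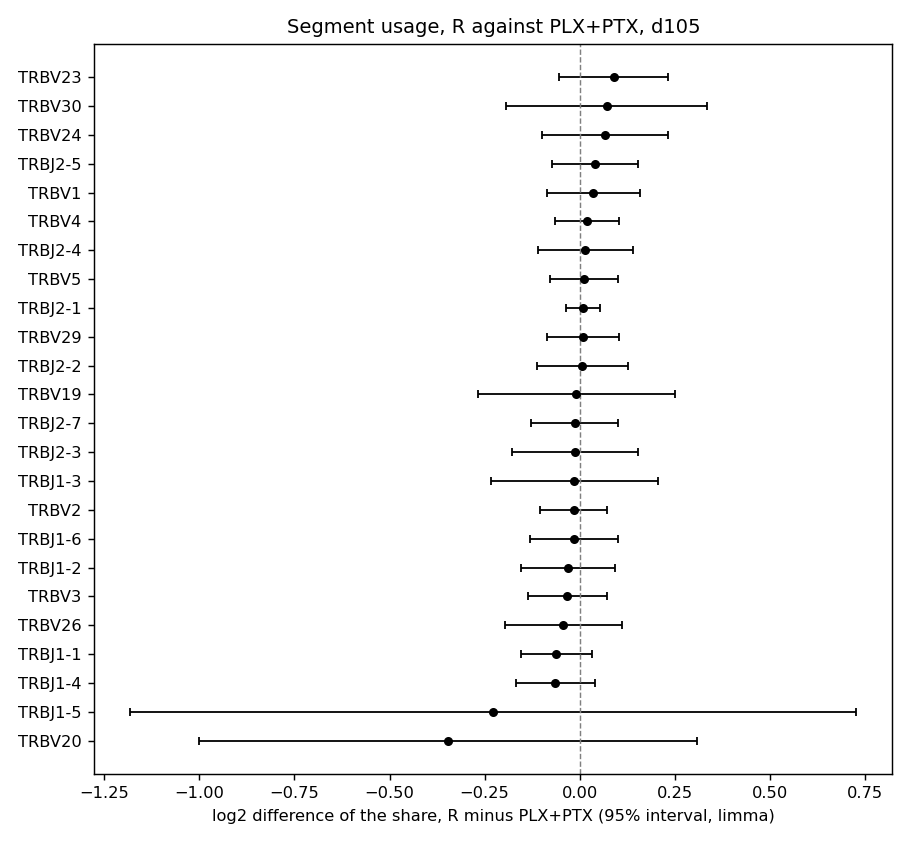
Log2 difference of the share of normalised clone counts, R minus PLX+PTX (horizontal axis), for 24 segments (rows), with 95% intervals from limma. Every interval includes 0, and the wide ones belong to TRBV20 and TRBJ1-5.

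No pair of a V and a J segment was called either. Of 104 pairs, 0 passed an adjusted p of 0.05 (0%) and 1 had an unadjusted p under 0.05 (0.962%), with a lowest adjusted p of 0.953 in limma. That pair, TRBV29 with TRBJ1-6, held 0.138% ± 0.0209 in R libraries and 0.112% ± 0.0166 in PLX+PTX libraries, a log2 difference of 0.28 (SE 0.11). The next by p were TRBV4 with TRBJ1-4 at -0.17 (SE 0.09), TRBV24 with TRBJ1-3 at 0.21 (SE 0.12), TRBV2 with TRBJ2-2 at -0.14 (SE 0.08) and TRBV5 with TRBJ1-1 at -0.11 (SE 0.07). Within blocks of numbers, TRBV2 with TRBJ2-2 differed by 0.057 in the lower and by -0.36 in the higher block. The most used pair by normalised counts, TRBV4 with TRBJ2-7, held 9.69% ± 0.864 in R libraries and 9.81% ± 0.729 in PLX+PTX libraries. Its log2 difference was -0.02 (95% interval -0.18 to 0.14). By reads this pair held 3.11% and 3.18%, below TRBV3 with TRBJ2-7 at 4.29% and 4.40%.

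No CDR3 length class was called, and the mean lengths lay within the spread between libraries. The mean length was 13.79 ± 0.0175 amino acids in R libraries and 13.80 ± 0.0196 in PLX+PTX libraries, and the difference of -0.00542 (95% interval -0.0297 to 0.0194) had an exact permutation p of 0.606. Of 10 length classes, 0 passed an adjusted p of 0.05 in limma (0%) and 2 had an unadjusted p under 0.05 (20%). CDR3s of 17 amino acids held 1.63% ± 0.0917 in R libraries and 1.74% ± 0.0495 in PLX+PTX libraries, with a log2 difference of -0.10 (SE 0.04, adjusted p 0.158 in limma). CDR3s of 14 amino acids, the most frequent length, held 31.0% ± 0.371 in R libraries and 30.6% ± 0.367 in PLX+PTX libraries, with a log2 difference of 0.02 (SE 0.01, adjusted p 0.191 in limma). Ranges overlapped for both lengths. CDR3s of 11, 16 and 18 amino acids were next by p, at log2 differences of -0.05, -0.02 and 0.07.

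Features of the joints, added after the data were seen, gave no call. In rearrangements with an assigned D segment, bases inserted at the joints averaged 3.18 ± 0.0414 in R libraries and 3.18 ± 0.0380 in PLX+PTX libraries. The difference was -0.00110 (95% interval -0.0551 to 0.0481, exact permutation p 0.957). TRBD2 made up 46.8% ± 0.416 of assigned D segments in R libraries and 46.9% ± 0.531 in PLX+PTX libraries (exact permutation p 0.502). A D segment was assigned in 78.6% ± 0.407 of R and 78.9% ± 0.966 of PLX+PTX rearrangements (exact permutation p 0.472). Over 13 features of joints and of clone size, the adjusted p was 1 for each.

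Diversity and clonality were compared by exact permutation tests over all 924 ways to divide the 12 libraries, 2-sided, with adjustment over 8 measures. Clonality, which is 0 when all clonotypes are equally abundant and 1 when a single one fills the library, was 0.0579 ± 0.00360 in R libraries and 0.0592 ± 0.00437 in PLX+PTX libraries (exact permutation p 0.604). Richness, the number of nucleotide forms at 1327206 reads in each library, was 58958 ± 14886 in R libraries and 62019 ± 13704 in PLX+PTX libraries. Its difference of -3061 had a 95% interval from -21632 to 15359 (exact permutation p 0.714). With 6 libraries a group, the data are compatible with any difference inside that interval. Richness differed by 7246 within the lower block of numbers and by -15606 within the higher block.

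Public clonotypes, those found in at least 50% of the d105 libraries, held 12.9% ± 0.505 of normalised counts in R libraries and 12.8% ± 0.593 in PLX+PTX libraries (exact permutation p 0.926). Convergence, the percent of merged clonotypes encoded by more than 1 nucleotide form, was 6.82% ± 1.12 in R libraries and 7.01% ± 0.957 in PLX+PTX libraries (exact permutation p 0.758). CDR3s with hydrophobic residues at positions 6 and 7, a feature known to favour self-reactivity, held 2.61% ± 0.127 in R libraries and 2.61% ± 0.112 in PLX+PTX libraries (exact permutation p 0.991). The adjusted p was 0.991 for each of clonality, richness, length and these 3 measures. Differences within the blocks of numbers had opposite signs for richness, length and these 3 measures, and the same sign for clonality (-0.000443 in the lower and -0.00125 in the higher block).

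**Figure D3:**
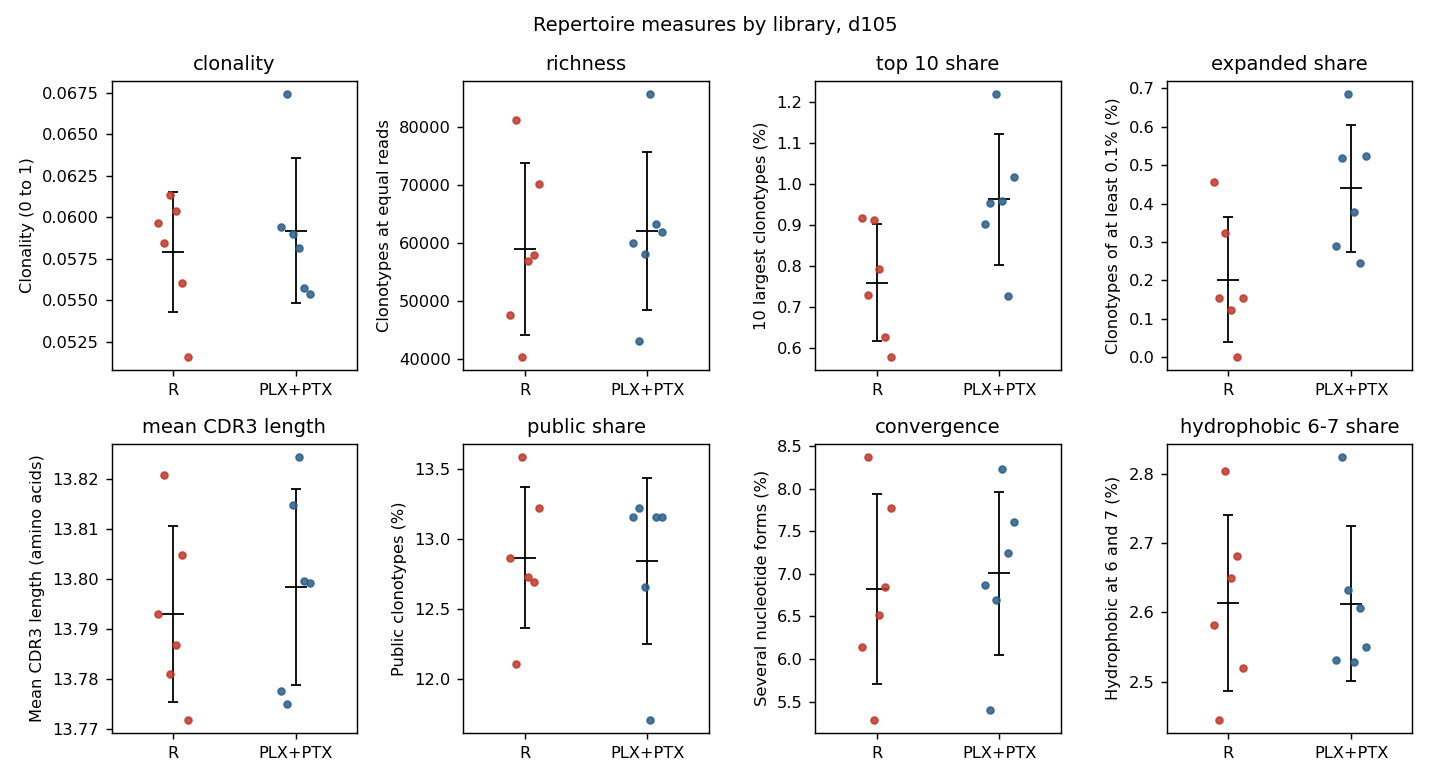
The 8 repertoire measures (vertical axes, unit in each label) in each library, R in red left of PLX+PTX in blue, with bars for the mean and SD of 6 libraries. The groups overlap in all 8, and the axes do not start at 0.

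Neither of the 2 measures of large clones passed the adjustment, and their unadjusted exact permutation p lay under 0.05 in normalised counts of single nucleotide forms, and above it once forms were merged. The 10 largest clonotypes held 0.918%, 0.729%, 0.911%, 0.793%, 0.628% and 0.578% in R replicates 1 to 6, and 0.902%, 0.952%, 1.22%, 0.959%, 0.728% and 1.02% in PLX+PTX replicates 1 to 6. The difference was -0.203 percentage points (95% interval -0.400 to -0.00837, exact permutation p 0.0455, adjusted p 0.182). Expanded clonotypes, nucleotide forms of at least 0.1% each, held 0.457%, 0.153%, 0.322%, 0.123%, 0% and 0.154% in R replicates 1 to 6, and 0.289%, 0.517%, 0.685%, 0.378%, 0.244% and 0.524% in PLX+PTX replicates 1 to 6. R replicates 1 and 3 lay inside the PLX+PTX range and the other R libraries below it. The difference was -0.238 percentage points (95% interval -0.454 to -0.0282, exact permutation p 0.0346, adjusted p 0.182). It was -0.0884 within the lower block of numbers and -0.382 within the higher block. At equal reads the expanded share differed by -0.255 (exact permutation p 0.0152) and the top 10 share by -0.212 (exact permutation p 0.0390). A cutoff of 0.05% gave -0.414 (exact permutation p 0.0368), and the 100 largest clonotypes gave -0.235 (exact permutation p 0.281). None of these passed the adjustment.

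Merging nucleotide forms by amino acid CDR3, an alternative added after the values were seen, moved the p-values of both measures above 0.05 before any adjustment. Merged expanded clonotypes held 0.618%, 0.275%, 0.363%, 0.318%, 0.222% and 0.177% in R replicates 1 to 6, and 0.444%, 0.567%, 0.790%, 0.558%, 0.309% and 0.524% in PLX+PTX replicates 1 to 6. The difference was -0.203 percentage points (exact permutation p 0.0541, adjusted p 0.433), and R replicate 1 was the second highest of the 12. The 10 largest merged clonotypes held 0.895% ± 0.165 in R libraries and 1.05% ± 0.160 in PLX+PTX libraries (exact permutation p 0.130, adjusted p 0.519). Merging put 13 clonotypes of R libraries and 18 of PLX+PTX libraries at or above 0.1%, of which 9 and 12 were TRBV4 with TRBJ2-7.

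In reads the mean expanded share was not lower in R libraries. It was 0.222% ± 0.211 in R libraries and 0.182% ± 0.244 in PLX+PTX libraries, a difference of 0.0401 percentage points (exact permutation p 0.760), and the share of the 10 largest clonotypes differed by -0.0199 (exact permutation p 0.894). In R replicate 3, 1 TRBV13-2 clonotype, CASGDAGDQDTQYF, made up 0.499% of the 0.621% of reads in expanded nucleotide forms. It also made up all of the 0.138% in R replicate 6, and the difference without this clonotype was not tested. With merged forms the difference in reads was 0.00825 (exact permutation p 0.985). Over nucleotide forms, normalised counts put 8 clonotypes of R libraries and 15 of PLX+PTX libraries at or above 0.1%, while reads put 7 and 7 there. Of the 23 by normalised counts, 15 were TRBV4 with TRBJ2-7, a pair whose reads are multiplied by 6.93, and 5 belonged to pairs with a factor above 10. Just 2 of the 23 also reached 0.1% of reads. Expanded clonotypes of TRBV4 with TRBJ2-7 held on average 0.131% of R libraries and 0.263% of PLX+PTX libraries. Those of pairs with a factor above 10 held 0.0424% of R libraries and 0.133% of PLX+PTX libraries.

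**Figure D4:**
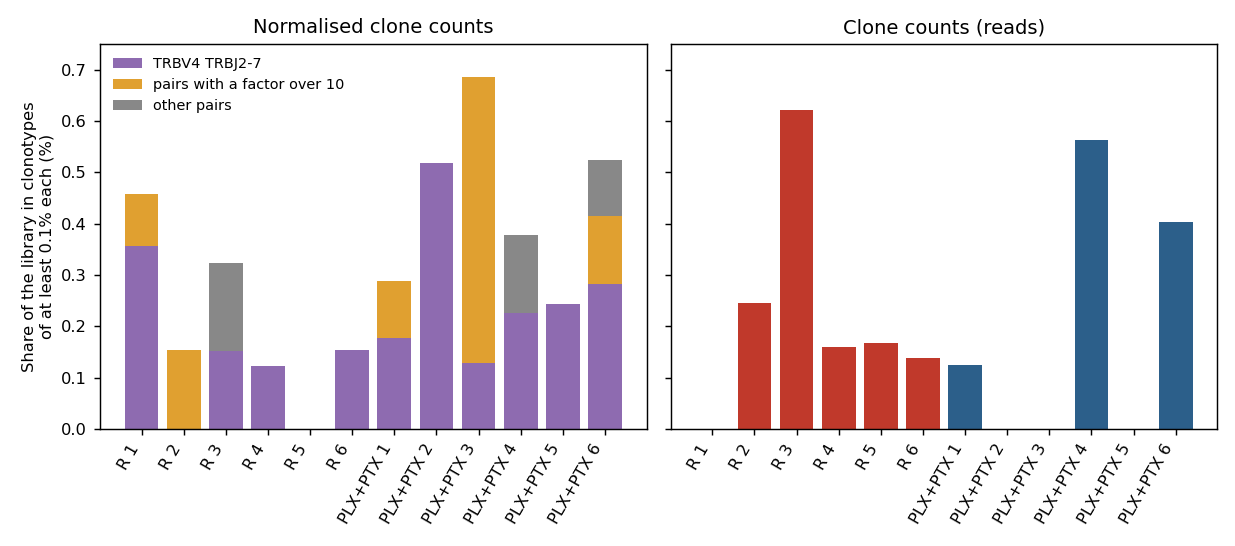
Share of each library (%, vertical axis) in nucleotide forms of at least 0.1% each, by normalised clone counts (left, coloured by V and J pair) and by reads (right, R in red left of PLX+PTX in blue). By normalised counts PLX+PTX libraries reach 0.685% and R libraries 0.457%, and by reads the highest bar is R replicate 3 at 0.621%.

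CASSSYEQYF and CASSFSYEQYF, public TRBV4 clonotypes, were the merged clonotypes that most often reached 0.1%. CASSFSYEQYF did so in R replicates 1 and 5 and in PLX+PTX replicates 1, 2, 3 and 5, and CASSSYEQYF in 5 R and 4 PLX+PTX libraries. Merged, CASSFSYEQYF had 356, 713 and 1280 normalised counts per 1000000 (CPM) as lowest, median and highest value in R libraries, and 657, 1183 and 1781 in PLX+PTX libraries, and limma gave a log2 difference of -0.80 (SE 0.91, adjusted p 0.997). The groups overlapped. The nucleotide form printed above made up 92.9% of its reads and was found in all 12 libraries. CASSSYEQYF had 365, 1437 and 1933 CPM in R libraries and 763, 1130 and 2017 CPM in PLX+PTX libraries (log2 difference -0.02, SE 0.37). It was encoded by 8 nucleotide forms in the 12 libraries, and the form printed above made up 67.8% of the reads.

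The other clonotypes with the highest mean among those in all 12 libraries also overlapped. TRBV4 TRBJ2-7 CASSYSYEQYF averaged 654 ± 260 CPM in R libraries and 768 ± 315 in PLX+PTX libraries. TRBV4 TRBJ2-4 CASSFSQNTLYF averaged 623 ± 269 CPM in R libraries and 598 ± 120 in PLX+PTX libraries. A TRBV5 TRBJ2-5 clonotype with 18 nucleotide forms averaged 570 ± 304 CPM in R libraries and 503 ± 202 in PLX+PTX libraries. That pair has a factor of 63.1, and the clonotype rested on 7 to 73 reads in R libraries and 22 to 71 in PLX+PTX libraries.

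No library had a dominant clone. The highest normalised share was 0.556%, reached in PLX+PTX replicate 3 by TRBV26 TRBJ2-3 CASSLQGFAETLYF, from 302 reads and a factor of 75.5. In R libraries the highest was TRBV4 TRBJ2-7 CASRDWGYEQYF in replicate 1, with 0.228% of normalised counts and 0.0760% of reads (95% Wilson interval 0.0719 to 0.0803), which also led that library by reads. This clonotype was found in 3 R and 3 PLX+PTX libraries. Over nucleotide forms, the most normalised counts in R replicate 2 belonged to TRBV26 TRBJ2-3 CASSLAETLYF (0.153% from 91 reads), in R replicate 3 to TRBV13-2 TRBJ2-5 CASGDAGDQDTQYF (0.170%), in R replicate 4 to TRBV4 TRBJ2-7 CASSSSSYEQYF (0.123%), in R replicate 5 to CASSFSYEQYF (0.0958%) and in R replicate 6 to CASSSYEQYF (0.154%). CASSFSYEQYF led PLX+PTX replicates 1 and 2, and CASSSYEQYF led PLX+PTX replicate 5. TRBV4 TRBJ2-7 clonotypes found in no R library led PLX+PTX replicate 4 with 0.226% and replicate 6 with 0.282%. The first was found in 1 d105 library, the second in 2. With forms merged, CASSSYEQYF led R replicates 3, 4 and 6 with 0.193%, 0.180% and 0.177%, TRBV1 TRBJ2-7 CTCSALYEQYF led R replicate 5 with 0.115%, and the other leaders were the clonotypes just named.

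By reads, the highest share in either group was 0.499% (95% Wilson interval 0.490 to 0.508), for TRBV13-2 TRBJ2-5 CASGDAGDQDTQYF in R replicate 3, and the same clonotype led R replicate 6. It had 141, 333, 12224, 517, 228 and 2193 reads in R replicates 1 to 6, and 264, 1751, 927, 545, 0 and 95 reads in PLX+PTX replicates 1 to 6. The groups overlapped, and limma gave a log2 difference of 1.26 (SE 0.95, adjusted p 0.992). TRBV13-2 is on the list of segments that FVB/N mice lack. The nucleotide form printed above made up 99.1% of its reads and was found in 22 of the 23 d105 libraries, and the source of these reads was not tested.

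Most other leaders by reads, again over nucleotide forms, were found in few libraries. In R libraries they were TRBV24 TRBJ2-7 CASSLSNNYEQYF in replicate 2 (0.123% of reads), TRBV24 TRBJ2-3 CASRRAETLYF in replicate 4 (0.160%) and TRBV30 TRBJ1-2 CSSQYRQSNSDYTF in replicate 5 (0.167%). In PLX+PTX libraries they were TRBV26 TRBJ1-1 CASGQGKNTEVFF in replicate 4 (0.262%), TRBV29 TRBJ2-7 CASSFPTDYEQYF in replicate 6 (0.161%) and TRBV24 TRBJ2-4 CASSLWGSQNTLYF in replicate 1 (0.124%). TRBV24 TRBJ2-5 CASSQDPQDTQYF, TRBV26 TRBJ2-7 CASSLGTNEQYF and TRBV24 TRBJ2-3 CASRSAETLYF led PLX+PTX replicates 3, 2 and 5 with 0.0783%, 0.0741% and 0.0676%. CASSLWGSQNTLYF was found in 5 libraries of each group, and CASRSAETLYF in 4 R and 3 PLX+PTX libraries. With forms merged, TRBV26 TRBJ1-1 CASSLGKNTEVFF led PLX+PTX replicate 4 with 0.309% of reads, and the leaders by reads of the other 11 libraries were those named here.

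Shared clonotypes could be compared between libraries, and no single one passed. Of 5242 merged clonotypes present in 50% or more of d105 libraries, limma on log2(CPM + 10) called 0 at an adjusted p of 0.05 (0%), with a lowest adjusted p of 0.736. An unadjusted p under 0.05 was found for 255 (4.86%), 126 of them higher and 129 lower in R libraries. In 10 of the 5242 (0.191%) the values of the groups did not overlap, 5 higher and 5 lower in R. Besides 3 described below, these were TRBV24 TRBJ1-1 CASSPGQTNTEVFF, TRBV3 TRBJ1-1 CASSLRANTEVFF and TRBV3 TRBJ2-1 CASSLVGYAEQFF, higher in R, and TRBV1 TRBJ1-1 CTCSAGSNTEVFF, TRBV24 TRBJ2-7 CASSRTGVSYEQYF, TRBV3 TRBJ2-7 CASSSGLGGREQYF and a TRBV2 TRBJ2-4 clonotype, lower in R, all named after their values were seen. The median log2 difference was -0.01, the middle 50% lay between -0.35 and 0.32, and the median SE was 0.49. Small differences of single clonotypes were therefore not detectable.

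Among the 5 with the smallest p and a higher level in R, TRBV2 TRBJ2-1 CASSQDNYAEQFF had 307, 251, 113, 113, 262 and 193 reads in R replicates 1 to 6 and 115, 0, 0, 49, 0 and 28 reads in PLX+PTX replicates 1 to 6. Its groups did not overlap in CPM (24.3 to 87.1 in R, 0 to 20.7 in PLX+PTX), and the log2 difference was 1.98 (SE 0.46, adjusted p 0.736 in limma). It was encoded by 4 nucleotide forms, and the form with 65.8% of the reads was found in 5 R libraries and in 0 PLX+PTX libraries. TRBV5 TRBJ2-2 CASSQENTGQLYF, TRBV2 TRBJ2-7 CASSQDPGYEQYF and TRBV3 TRBJ1-2 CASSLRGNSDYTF were each found in 6 R libraries and in 2, 2 and 3 PLX+PTX libraries, with log2 differences of 1.52, 1.92 and 1.55. The fifth, TRBV2 TRBJ2-5 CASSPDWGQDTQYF, had 54, 37, 323, 0, 104 and 121 reads in R replicates 1 to 6 and 0 in every PLX+PTX library. Its mean of 38.6 CPM in R libraries was at least 36.4-fold higher than the level that 3 reads per PLX+PTX library would give. The limma log2 difference was 1.90 (SE 0.48, adjusted p 0.736). It was encoded by 5 nucleotide forms. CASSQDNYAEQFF, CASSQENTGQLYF, TRBV2 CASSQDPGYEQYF and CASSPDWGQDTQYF were found in 14, 17, 16 and 12 of the 23 d105 libraries, R libraries included. These clonotypes passed the filter for shared clonotypes only through the R group, so a higher level in R was thereby favoured. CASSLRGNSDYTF, found in 18 d105 libraries, did not depend on the R group to pass.

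Among the 5 with a lower level in R, TRBV20 TRBJ2-4 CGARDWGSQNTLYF had 0, 0, 0, 0, 24 and 0 reads in R replicates 1 to 6 and 35, 53, 57, 56, 24 and 27 reads in PLX+PTX replicates 1 to 6. It was found in 1 R library and in all 6 PLX+PTX libraries, without overlap in CPM, and its log2 difference was -1.80 (SE 0.46, adjusted p 0.736 in limma). TRBV5 TRBJ2-7 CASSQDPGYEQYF differed by -2.01 (SE 0.55) and shares its amino acid CDR3 with the TRBV2 clonotype that was higher in R. TRBV1 TRBJ2-4 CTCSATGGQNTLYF and TRBV3 TRBJ2-4 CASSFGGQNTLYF differed by -1.08 and -1.89. TRBV19 TRBJ2-7 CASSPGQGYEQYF had 0 reads in every R library and 174, 0, 207, 155, 163 and 24 reads in PLX+PTX replicates 1 to 6. Its mean of 18.1 CPM in PLX+PTX libraries corresponds to a level at least 37.4-fold lower in R, against 3 reads per R library. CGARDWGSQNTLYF was found in 15 of the 23 d105 libraries, and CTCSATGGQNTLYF, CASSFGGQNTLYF and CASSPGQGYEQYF in 14 each. These clonotypes passed the filter for shared clonotypes only through the PLX+PTX group, so a lower level in R was thereby favoured. TRBV5 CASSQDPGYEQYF, found in 18 d105 libraries, did not depend on the PLX+PTX group to pass.

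**Figure D5:**
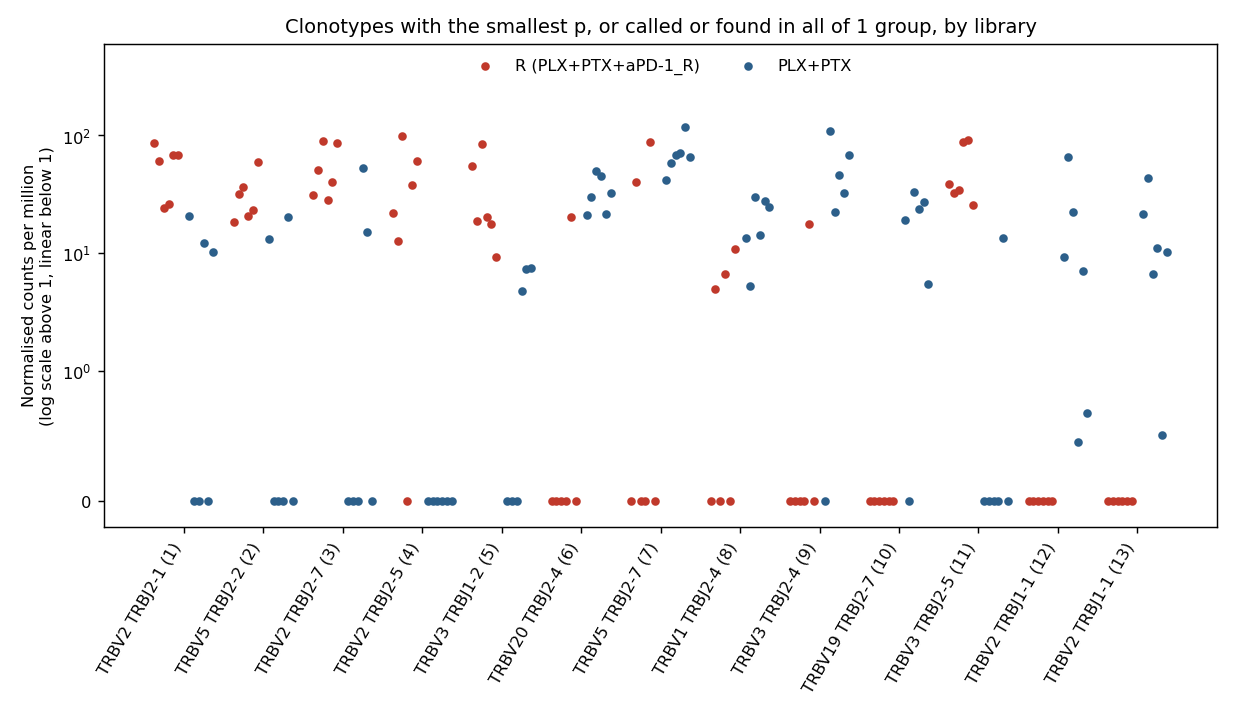
Normalised counts per 1000000 (CPM, vertical axis, logarithmic above 1 and linear below) in each library, R in red left of PLX+PTX in blue, for 13 clonotypes given by V and J pair. Numbers 1 to 5 have the smallest p among those higher in R, 6 to 10 among those lower in R, 11 was called under the 25% filter, and 12 and 13 were found in all 6 PLX+PTX libraries and in 0 R libraries.

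On reads, edgeR called 0 of the 5242, with 33 at an unadjusted p under 0.05. DESeq2 on reads called 2 of the clonotypes above, TRBV2 TRBJ2-5 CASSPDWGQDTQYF (adjusted p 0.000444) and TRBV19 TRBJ2-7 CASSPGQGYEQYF (adjusted p 1.8e-05), whose adjusted p reached 0.998 under other settings. With clonotypes found in at least 25% of d105 libraries, 23997 were tested and limma called 1, TRBV3 TRBJ2-5 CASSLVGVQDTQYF (log2 difference 2.29, adjusted p 0.0137). It had 11, 11, 13, 31, 29 and 6 reads in R replicates 1 to 6 and 0, 0, 0, 0, 4 and 0 reads in PLX+PTX replicates 1 to 6, under a factor of 13.2. It was found in 9 of the 23 d105 libraries, of which 2 belonged to other groups, so it passed the 25% filter through the R group, and a difference was thereby favoured. Of its 3 nucleotide forms, the one printed above was found in 4 R libraries, another in 3 R libraries, and the form in PLX+PTX replicate 5 in no R library.

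Presence and absence were also counted, without a test. Of 8010 merged clonotypes present in 6 or more of the 12 libraries, 0 were found in all 6 R libraries and no PLX+PTX library, and 2 were found in all 6 PLX+PTX libraries and no R library (0.025% in both directions together). Both are TRBV2 with TRBJ1-1. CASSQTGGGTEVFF had 72, 154, 15, 27, 1 and 17 reads in PLX+PTX replicates 1 to 6 and 0 in every R library. Its mean of 15.5 CPM in PLX+PTX libraries (median 10.6) was 11.9-fold above the level that 3 reads per R library would give. The other, printed above by its nucleotide form alone, had 31, 234, 52, 1, 16 and 1 reads in PLX+PTX replicates 1 to 6. Its mean of 17.6 CPM in PLX+PTX libraries (median 8.12) was 13.5-fold above that level, with 65.8 CPM in replicate 2. This clonotype had 6 nucleotide forms, and 0 of them were found in more than 1 of the 12 libraries. PLX+PTX libraries with 1 read lay below the level of 3 reads, and both clonotypes were picked by their presence in 1 group. With at least 3 reads asked for, the counts were 0 in both directions. Of 12465 merged clonotypes present in 5 or more of the 12 libraries, 131 (1.05%) were in at least 5 R and at most 1 PLX+PTX library, and 185 (1.48%) in at least 5 PLX+PTX and at most 1 R library. Of 536811 merged clonotypes, all 6 R libraries shared 718 while all 6 PLX+PTX libraries shared 809. With libraries thinned to equal reads these counts were 687 and 770, and with at least 3 reads 608 and 682. The difference was not tested.

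Overlap between libraries was compared last. The Morisita-Horn index, which is 1 for identical repertoires and 0 for repertoires with no clonotype in common, averaged 0.213 over the 15 pairs of R libraries, 0.217 over the 15 pairs of PLX+PTX libraries and 0.213 over the 36 pairs between groups. The mean within groups exceeded that between groups by 0.00225 (exact permutation p 0.476). Pairs of libraries from the same block of numbers averaged 0.215 and pairs from different blocks 0.212. The highest index of any pair was 0.296, within PLX+PTX.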

How the data were processed

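Genomic DNA of digested lymph nodes was sequenced in paired reads, per the labels' protocols. Per the file headers, each deposited table lists clonotypes with segments, CDR3, a clone count (counts, whole reads) and 2 rescaled counts (scores). The deposited scores, one called nb and one called normalized, are the clone count multiplied by the authors' factors and rounded. For each pair of a TRBV and a TRBJ segment the factor was taken as the median over clonotypes with many reads. For the normalized count it ran from 0.207 to 75.5 over 135 pairs. These medians differed little between libraries (median spread 0.345%, highest 2.60%). Some pairs, among them that of 75.5, had such clonotypes in 1 library only. Sameness over all clonotypes of a pair was not checked. In the 12 libraries, 1227 to 2007 entries per library had a normalized count of 0. The derivation of the factors is not given in the sources used here, and neither are aligner, caller and build. The factor leaves depth unscaled, and a clonotype of a high-factor pair rests on few reads.

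Groups were taken from the treatment and time labels. Segments, pairs and lengths with a mean share of at least 0.1% were tested with limma 3.58.1 (R 4.3.3) on log2(percent + 0.01), and merged clonotypes found in at least 50% of d105 libraries on log2(CPM + 10), which understates changes of rare clonotypes. The 23 d105 libraries of 5 groups shared a fit, with Benjamini-Hochberg adjustment over all items and a threshold of 0.05. On reads, DESeq2 1.42.0 and the quasi-likelihood test of edgeR 4.0.16 were alternatives. Merged clonotypes share V, J and amino acid CDR3, while clonality, richness, top 10 and expanded shares and leaders used nucleotide forms, with merging as an alternative added after the data were seen. Repertoire measures used exact permutation tests over libraries (Python 3.11.15, numpy 2.4.6), with 95% intervals from the same permutations, and libraries were thinned to 1327206 reads for richness and convergence. The limma fits were also run on simulated reads with known changes. That run left out the pair factors, and its outcome is not given here. The labels describe no molecular identifiers and PCR copies are not independent molecules, so Wilson intervals and the limit of 3 reads for a count of 0 cover counting error only.

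Named items were the 5 segments, pairs, lengths or shared clonotypes (per direction) with the smallest p where fewer than 5 passed, list members, the leader of each library by reads and by normalised counts, the 5 clonotypes in all 12 libraries with the highest mean, and clonotypes in all of 1 group and none of the other. Members, lists and tests were chosen with earlier results of these data known. The d95, NR, PTX and WTNT libraries are not described here, though those of d105 entered the limma fits.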

Additional observations from a re-analysis of the deposited data

Results flagged for a closer look

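A library that stood far from the other 5 of its group was looked for in 84 groups of 6 values, over the 8 repertoire measures, 24 segments and 10 length classes of each group. It was found in 5, and chance alone marks about 1 in 20 such groups. All 5 were PLX+PTX libraries. Clonality was 0.0674 in PLX+PTX replicate 2, against 0.0554 to 0.0594 in the others. The same library had the highest share of CDR3s with hydrophobic residues at positions 6 and 7, 2.82%, against 2.53% to 2.63%. Public clonotypes held 11.7% in PLX+PTX replicate 4, against 12.7% to 13.2%. In PLX+PTX replicate 1, TRBV24 held 8.53%, against 6.94% to 7.24% in the others, and TRBJ2-2 held 5.22%, against 5.51% to 5.68%. No difference between R and PLX+PTX in these measures passed its test, with or without these libraries.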

How the results depend on the processing

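Segments, pairs and CDR3 lengths had 0 calls under every alternative run (raw reads, nb counts, each clonotype counted once, other pseudocounts, no filter, the 12 libraries only, the block of numbers as a covariate, edgeR, DESeq2, and each library left out, for lengths only raw reads, each clonotype once, a higher pseudocount, the block and left-out libraries). Shared clonotypes had 0 calls except for 1 with the 25% filter and 2 with DESeq2, which edgeR did not call (0). Each of these passed its filter through the group where it was high. Clonotypes found in all of 1 group and none of the other numbered 0 at 3 reads or more and 1 at equal depth, against 2. The expanded share differed by 0.0401 in raw reads, and by 0.00825 in raw reads with nucleotide forms merged, the opposite sign to normalised counts, and the cause was not tested. In raw reads, 0.499% of the 0.621% in R replicate 3 belonged to the clonotype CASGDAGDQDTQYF, and the difference without it was not tested. Merging forms in normalised counts gave -0.203 (exact permutation p 0.0541) for the expanded share and -0.154 (exact permutation p 0.130) for the top 10 share, both above 0.05 without adjustment. Merging was chosen after seeing the data. At equal reads, without merging, the exact permutation p stayed under 0.05 before adjustment for the expanded share (0.0152) and the top 10 share (0.0390). Other signs that turned belonged to differences near 0 that passed no test. In raw reads these were mean length (0.00142), public share (-0.0547), TRBV29 (-0.010) and lengths 16 (0.0042) and 18 (-0.0034), and at equal depth the hydrophobic share (-0.0105). With each clonotype counted once they were TRBJ1-4 (0.011), TRBV1 (-0.0082), TRBV19 (0.0055), TRBV29 (-0.0019), TRBV4 with TRBJ1-4 (0.039) and lengths 11 (0.014) and 18 (-0.032). TRBV19 was 0.0081 in edgeR and 0.012 in DESeq2, and TRBV29 -0.0014 in edgeR. Leaving out 1 library in turn gave -0.53 to 0.016 for TRBV20, -0.098 to 0.064 for TRBV19 and -0.014 to 0.027 for TRBV29, -0.00205 to 0.000361 for clonality, -7507 to 1672 for richness, -0.204 to 0.175 for public share, -0.504 to 0.122 for convergence, -0.0368 to 0.0436 for the hydrophobic share and -0.000374 to 0.00445 for the overlap between libraries. The top 10 share ranged from -0.250 to -0.152 and the expanded share from -0.289 to -0.189, both with adjusted p between 0.0693 and 0.364. No paired analysis was possible because the labels give no replicate numbers.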
